A study of Mus musculus with 6 samples.

Results

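The Hox genes of the mouse sit in 4 chromosomal clusters, Hoxa on chromosome 6, Hoxb on chromosome 11, Hoxc on chromosome 15 and Hoxd on chromosome 2. All protein-coding genes named Hoxa, Hoxb, Hoxc or Hoxd followed by a number were taken, which gave 39 of the 35905 genes in the data: 11 in Hoxa, 10 in Hoxb, 9 in Hoxc and 9 in Hoxd. Their RNA was measured by RNA sequencing in 2 lines of mouse breast cancer cells, with 3 libraries each: EO771-tdT-Parental, here called Parental, and the line named EO771-tdT-LM2, here called LM2. EO771 is a mouse mammary tumour line. The labels give both lines the genotype WT, and name no treatment; cells of both lines were taken at about 75% confluence after 48 h of culture, in 10% fetal serum. The labels do not spell out the tag tdT, how LM2 was obtained from EO771, or whether either line is 1 clone. They also do not say whether the 3 libraries of a line came from separate cultures, so the spread that the p-values rest on may be technical.

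Hox genes encode homeodomain transcription factors that give cells their position along the head-to-tail axis of the embryo and along the limbs. Each cluster is ordered, with low-numbered genes at its 3' end used early and towards the head, and high-numbered genes at its 5' end used later and towards the tail or the limb tip. Genes of the same number in different clusters are paralogues, copies that arose when the ancestral cluster was duplicated. Adult cells in culture often keep part of the pattern of the body region they came from. In the mammary gland, several Hox genes, those of paralogue group 9 among them, are known to take part in the growth of the epithelium.

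The libraries held 33922699 to 45849019 estimated counts. Of the markers of the labelled cell type, 1 of 8 epithelial genes, Krt8, reached 1 TPM, the transcript level scaled for length and depth, in all 6 libraries. Epcam stood at 0.0942 to 0.307 TPM in Parental and at 14.2 to 14.8 TPM in LM2, and Cdh1 stayed near 0. The epithelial list summed to 346 to 359 TPM in Parental and 491 to 514 in LM2, most of it Krt8. Of 6 mesenchymal genes 4 reached 1 TPM in all libraries, and the summed TPM of that list was 3760 to 3848 in Parental and 4782 to 4891 in LM2. Nearly all of that sum was Vim, at 3655 to 3743 TPM in Parental and 4661 to 4768 in LM2. Zeb1, Zeb2 and Twist1 were the others that reached 1 TPM, while Fn1 stayed below it and Cdh2 was near 0. Among markers of other cells, 1 of 7 leukocyte genes (Cd68), 1 of 5 endothelial genes (Pecam1), 0 of 4 adipocyte genes and 2 of 5 fibroblast genes (Pdgfra and Pdgfrb) reached 1 TPM in all 6 libraries. The summed leukocyte markers were 2.58 to 3.49 TPM in Parental and 4.04 to 4.75 in LM2, with the defining leukocyte gene Ptprc at 0.0524 TPM or less. The fibroblast markers summed to 53.7 to 55.9 TPM in Parental and 67.4 to 79 in LM2. Within that list Pdgfra was higher in LM2 (40.3 and 60.4 TPM on average), Pdgfrb did not pass (13.8 and 13.7), Col1a2 was lower (0.356 and 0.103), and Dcn and Lum were near 0. Their part in the Hox values below was not tested. These are bulk libraries, so fewer cells with a Hox RNA and less of that RNA per cell cannot be told apart.

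Only a few stretches of the clusters carried RNA, and both lines used nearly the same ones. A gene was counted as on where its summed TPM was at least 1 in each of the 3 libraries of a line. By this measure 13 Hox genes were on in Parental and 12 in LM2, 12 of them in both lines. The exception was Hoxc8, which was on in Parental and fell short of 1 TPM in 1 LM2 library. These genes were Hoxa10, Hoxb3, Hoxb6 and Hoxb13, Hoxc4, Hoxc6, Hoxc8, Hoxc9 and Hoxc10, and Hoxd4, Hoxd8, Hoxd9 and Hoxd10. Summed over all 39 genes, Hox RNA came to 139 ± 1.88 TPM in Parental and 164 ± 2.79 TPM in LM2 (SD, n = 3). The most abundant Hox gene in Parental, Hoxc10, was a mid-level transcript, with 4966 genes at or above its mean.

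**Figure D1:**
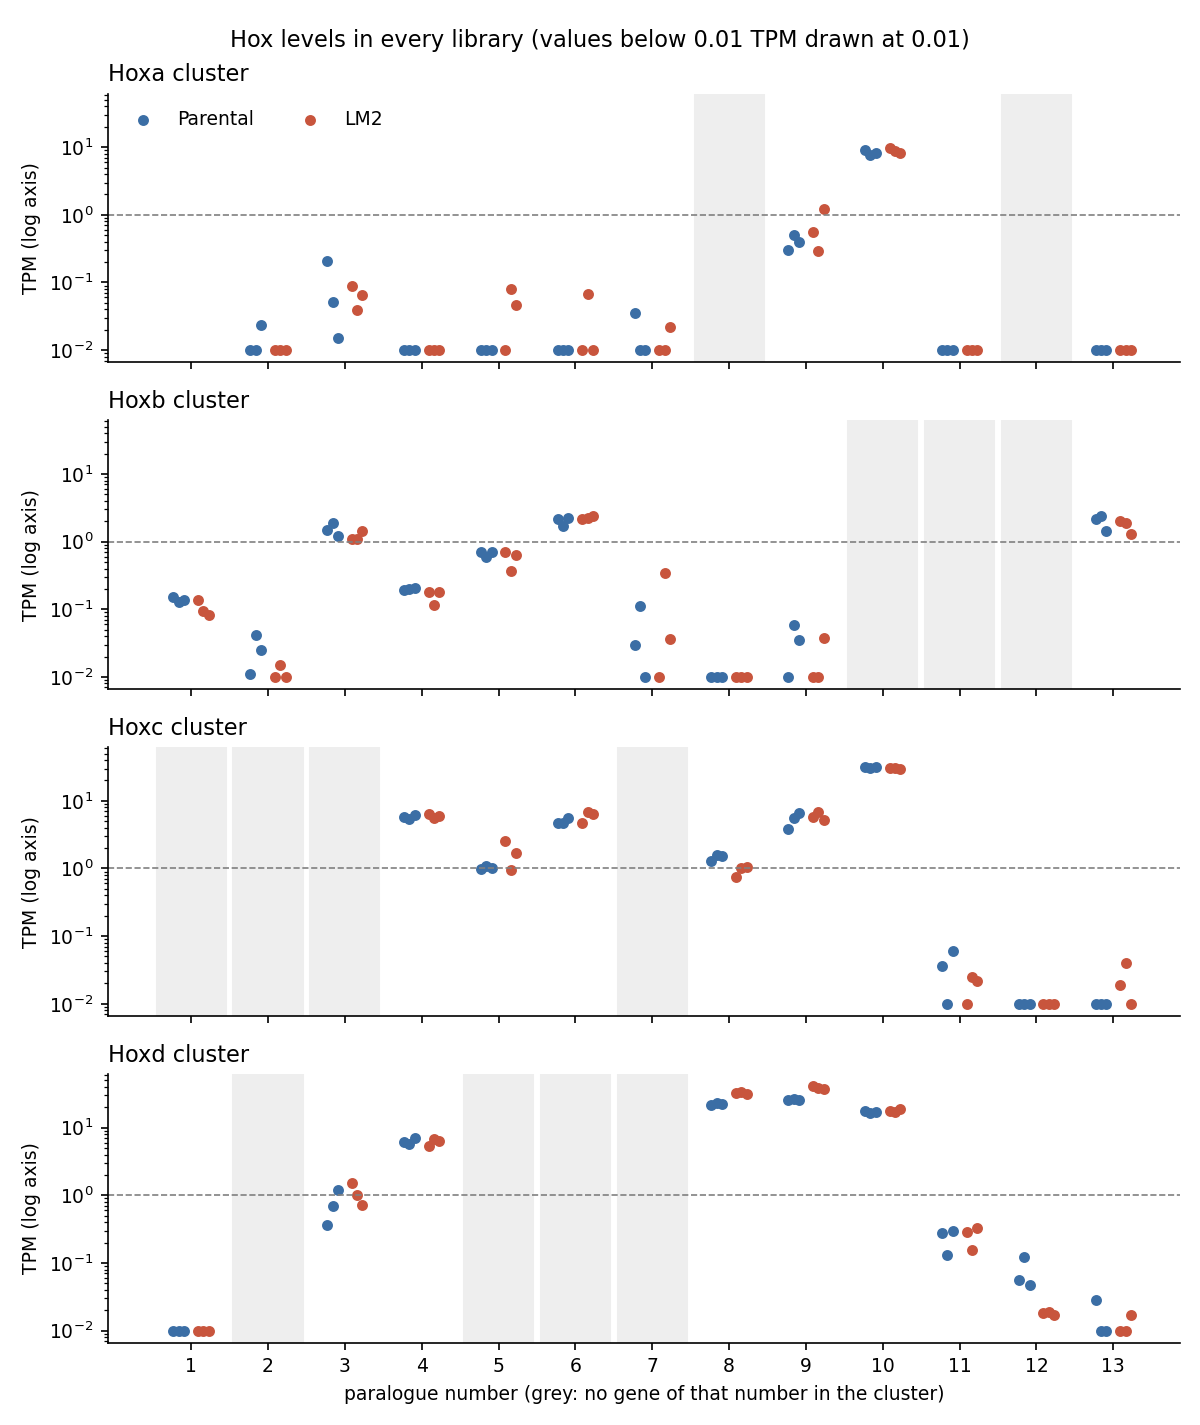
Level of Hox genes in every library, in TPM on a log axis, by cluster and paralogue number from the 3' end (1) to the 5' end (13); values below 0.01 are drawn at 0.01, grey bands have no gene, and 1 quiet gene is not drawn. Points are the 3 libraries of each line and the dashed line marks 1 TPM. All 6 libraries lie above it for Hoxa10 and for isolated genes in Hoxb. The same holds for Hoxc4, Hoxc6, Hoxc9 and Hoxc10, and for Hoxd4, Hoxd8, Hoxd9 and Hoxd10.

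The other 26 genes were on in neither line. Of these, 6 had 0 counts in all 6 libraries: Hoxa4, Hoxa11, Hoxa13, Hoxb8, Hoxc12 and Hoxd1. In all, 15 genes had at most 3 counts in every library. In 1 library a count of 0 allows up to 3 counts, or 0.0657 to 0.0888 CPM (counts scaled to library size) depending on the library. RNA below that level can thus be missed in a library, although some genes were detected there with 1 or 2 counts. No gene of paralogue group 2, 7, 11 or 12 was on in either line, and of the 4 group 13 genes, the most posterior ones, only Hoxb13 was. Paralogue groups 1 and 5 were also without a gene that was on, although Hoxc5 lay at the threshold, with 0.999, 1.09 and 1.02 TPM in Parental and 2.56, 0.964 and 1.72 TPM in LM2.

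Transcripts of paralogue group 10 made up the largest share of Hox RNA in both lines. Hoxa10, Hoxc10 and Hoxd10 act in the lumbar region and the hindlimb, and group 10 was the single paralogue group with all of its 3 genes on. Together they gave 58.7, 54.9 and 56.3 TPM in the Parental libraries and 58.2, 55.9 and 56.7 TPM in the LM2 libraries, so the lines overlapped. Group 9 gave 29.8, 33.2 and 33 TPM in Parental and 47.2, 45.7 and 43.5 TPM in LM2, and group 8 gave 22.6, 24.9 and 24.1 TPM against 33.4, 34.9 and 32.7 TPM. In groups 9 and 8 every LM2 library lay above every Parental library. Most of each group was 1 Hoxd gene. Hoxd9 averaged 26.3 TPM in Parental and 38.9 TPM in LM2, and Hoxd8 averaged 22.4 and 32.8 TPM. In the same groups Hoxc9 overlapped between the lines and Hoxc8 was lower in LM2, so the groups did not rise as a whole. Group 4, which patterns the hindbrain and neck, stood at 12.3 ± 0.952 TPM in Parental and 12.3 ± 0.316 TPM in LM2 (SD, n = 3). With these levels, group 10 held 40.8% of Hox RNA in Parental and 34.7% in LM2, and group 9 held 23.1% and 27.7%.

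**Figure D2:**
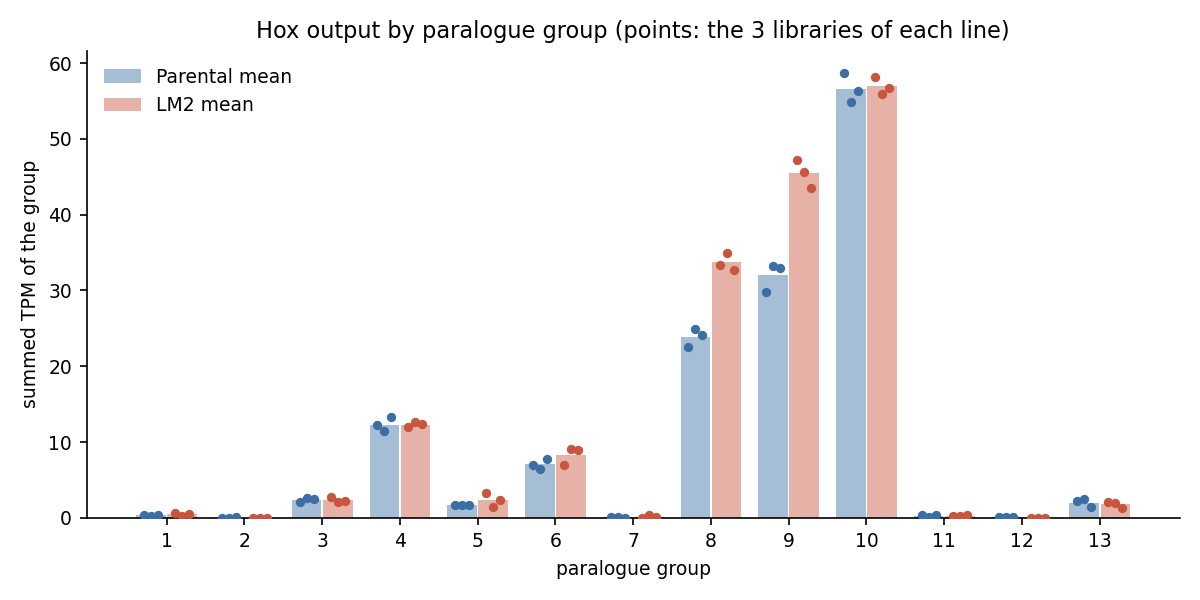
Summed TPM of the Hox genes of each paralogue group, from group 1 at the head end to group 13 at the tail end. Bars are means of 3 libraries and points are the libraries: groups 8 and 9 stand higher in LM2, while groups 4 and 10 are at like levels in the lines. Most of groups 8 and 9 is Hoxd8 and Hoxd9.

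By cluster, Hoxd held most of the Hox RNA. Its summed level was 71.5, 73.6 and 74.1 TPM in the Parental libraries and 98.5, 97.5 and 95.1 TPM in the LM2 libraries. The lines did not overlap, and the share of Hox RNA from Hoxd was 52.7% in Parental and 59.1% in LM2. This difference lay mostly in Hoxd8 and Hoxd9, the genes that set paralogue groups 8 and 9 apart, so it is not a separate result. Hoxc came second, at 49, 49 and 51.9 TPM in Parental and 50.9, 51.5 and 49.9 TPM in LM2, which overlap. Hoxa (8.98 ± 0.743 and 10.2 ± 0.784 TPM) and Hoxb (6.67 ± 0.638 and 6.18 ± 0.113 TPM) were low in both lines (SD, n = 3).

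The comparison of LM2 with Parental asked which genes differ between the lines, and it was fitted over all genes with edgeR's quasi-likelihood test. Of 13247 genes tested, 8272 passed a Benjamini-Hochberg adjusted p of 0.05, or 62.4%. Of the 39 Hox genes 20 had enough counts to be tested, 13 that were on in either line and 7 quiet ones, and 4 of the 20 passed. Hoxd3, Hoxd8 and Hoxd9 were higher in LM2, where 31.4% of all tested genes were higher. Hoxc8 was lower, where 31.1% of all tested genes were lower. The 19 genes that were not tested had at most 9 counts in any library and at most 0.341 TPM. Normalised levels of the lines did not overlap for 8 of the 20 tested Hox genes and for 67% of all tested genes. The median log2 fold change of the tested Hox genes was 0.03, and the median of its size was 0.23, beside 0.24 over all tested genes.

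The share of genes that passed grew with level, and the Hox genes are mostly low. Of tested genes below 1 CPM 27.4% passed and of the Hox genes there 0 of 4. From 1 to 5 CPM 48.7% of all genes and 2 of 8 Hox genes passed, from 5 to 20 CPM 63.3% and 0 of 5, and from 20 to 100 CPM 72.3% and 2 of 3. Hoxc10, the third Hox gene of that last class, did not pass.

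**Figure D3:**
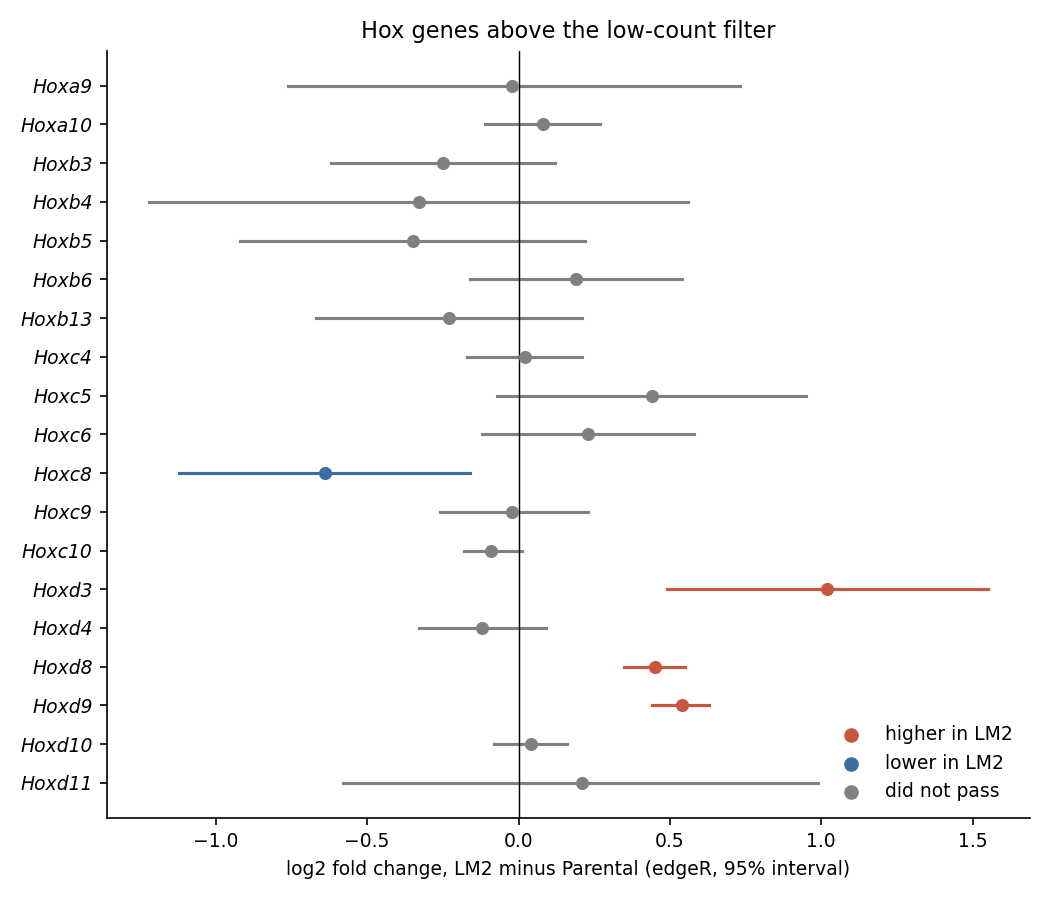
Log2 fold change, LM2 minus Parental, of tested Hox genes (1 is not drawn) with 95% confidence intervals, ordered by cluster and paralogue number. Red marks the genes higher in LM2 (Hoxd3, Hoxd8, Hoxd9), blue the gene lower in LM2 (Hoxc8) and grey the genes that did not pass; the intervals of Hoxd8 and Hoxd9 are narrow, and those of quiet genes are wide.

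In Hoxd the RNA came from 4 genes that follow each other by number among those that were on, Hoxd4, Hoxd8, Hoxd9 and Hoxd10, and the inner pair was higher in LM2 while the outer pair did not pass. Their promoters are shown to set the neighbours that moved beside those that did not. Each line gives bases 250 to 51 before the RefSeq start of the gene, 5' to 3' on the + strand of build GRCm38.p6, with CG dinucleotides, the targets of DNA methylation, in capitals.
Hoxd10, chr2:74691641-74691840: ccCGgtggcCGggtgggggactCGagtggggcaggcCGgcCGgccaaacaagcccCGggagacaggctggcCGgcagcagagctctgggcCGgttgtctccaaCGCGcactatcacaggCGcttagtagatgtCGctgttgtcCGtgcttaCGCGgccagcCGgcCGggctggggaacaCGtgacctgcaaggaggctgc
Hoxd9, chr2:74697513-74697712: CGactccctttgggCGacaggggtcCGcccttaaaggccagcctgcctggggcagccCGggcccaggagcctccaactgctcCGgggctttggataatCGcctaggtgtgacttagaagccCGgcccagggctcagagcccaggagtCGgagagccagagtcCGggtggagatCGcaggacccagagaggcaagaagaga
Hoxd8, chr2:74704365-74704564: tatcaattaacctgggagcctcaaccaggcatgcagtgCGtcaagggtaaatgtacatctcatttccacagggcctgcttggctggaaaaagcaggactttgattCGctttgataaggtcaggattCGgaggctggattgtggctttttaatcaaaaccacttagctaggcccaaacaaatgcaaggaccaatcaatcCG
Hoxd4, chr2:74721728-74721927: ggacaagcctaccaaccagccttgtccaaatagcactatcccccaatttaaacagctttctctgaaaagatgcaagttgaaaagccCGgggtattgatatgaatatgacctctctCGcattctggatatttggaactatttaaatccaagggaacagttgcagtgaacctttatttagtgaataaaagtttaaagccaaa
The stretch before Hoxd10 held 18 CG dinucleotides and that before Hoxd9 held 10, while Hoxd8 had 4 and Hoxd4 had 2. G and C made up 69.5% and 65.5% of the bases at Hoxd10 and Hoxd9, and 46.5% and 39.0% at Hoxd8 and Hoxd4. The pair higher in LM2 thus joins 1 GC-rich and 1 GC-poor promoter, and so does the pair that did not pass. Over all 32851 promoters the median was 4 CG dinucleotides in this window. RefSeq promoters were matched for 22 of the 39 Hox genes (24 windows). Their medians were 7 CG (range 2 to 18, 7 windows) for genes that were on and 12 (2 to 26, 17 windows) for genes that were on in neither line. The windows of genes that were on are those of Hoxa10 (2 windows), Hoxc4, Hoxd4, Hoxd8, Hoxd9 and Hoxd10. Hoxc10 and the Hoxb genes that were on had none, so these medians do not describe all genes that were on.

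Searched on both strands, the CCAAT box, bound by NF-Y, lay in the windows of Hoxd8 and Hoxd4, and in 11 of the 24 Hox windows beside 28.4% of all promoters. The GC box GGGCGG, bound by SP1, lay in the window of Hoxd9, in 9 of 24 Hox windows and in 24.6% of all promoters. The E box CACGTG lay in the window of Hoxd10, in 3 of 24 Hox windows and in 4.34% of all. The letters TGATNNAT, bound by HOX and PBX proteins together, were in none of these 4 windows, in 3 of 24 Hox windows (Hoxa2, Hoxb1 and Hoxd11) and in 6.44% of all. TGACAG, bound by MEIS proteins, was in 0 of 24 Hox windows and 13.1% of all, and TTTATNG, preferred by posterior HOX proteins, in 1 of 24 (Hoxb8) and 7.65% of all. No motif searched contains another, and binding was not measured.

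Hoxd9, a posterior gene that patterns the lower spine and the forelimb, stood at 25.7, 27 and 26.1 TPM in Parental and at 41.0, 38.7 and 37.0 TPM in LM2. All LM2 libraries were above all Parental libraries, which made Hoxd9 the most abundant Hox gene of LM2, while Hoxc10 was that of Parental. The log2 fold change was 0.54 ± 0.05 (SE; 95% confidence interval 0.44 to 0.63, adjusted p = 9.43e-10), or 1.45-fold. Hoxd8, a trunk gene, stood at 21.3, 23.3 and 22.5 TPM in Parental and at 32.7, 33.9 and 31.7 TPM in LM2. Again the lines were apart, with a log2 fold change of 0.45 ± 0.05 (0.35 to 0.55, adjusted p = 3.42e-08), or 1.37-fold.

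Hoxd10, which patterns the lumbar spinal cord and the hindlimb, lies next to Hoxd9 on its 5' side. It stood at 17.5, 16.5 and 17.0 TPM in Parental and at 17.6, 16.9 and 19.0 TPM in LM2, so the lines overlapped. Its log2 fold change was 0.04 with an interval of -0.08 to 0.16 (adjusted p = 0.568), which lies below the intervals of Hoxd8 and Hoxd9, although the difference between genes was not tested. Within each library the ratio of Hoxd9 to Hoxd10 counts was 1.76, 1.97 and 1.84 in Parental and 2.78, 2.75 and 2.34 in LM2, and these ratios, which do not depend on scaling, did not overlap. The Hoxd8 to Hoxd10 ratio was 1.52, 1.65 and 1.71 in Parental and 2.26, 2.22 and 2.01 in LM2. Between the pair that was higher, the Hoxd9 to Hoxd8 ratio was 1.16, 1.19 and 1.08 in Parental and 1.23, 1.24 and 1.16 in LM2, which overlap.

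Hoxd4, the anterior gene of the stretch, stood at 6.24, 5.80 and 7 TPM in Parental and at 5.44, 6.84 and 6.30 TPM in LM2. The lines overlapped, and the log2 fold change was -0.12 (interval -0.33 to 0.09, adjusted p = 0.309). Hoxd3, another anterior gene, had 31, 33 and 36 estimated counts in Parental and 68, 59 and 50 in LM2. Its log2 fold change was 1.02 ± 0.26 (0.49 to 1.55, adjusted p = 0.00148). In TPM, which follow transcript length, the lines overlapped, with 0.37, 0.704 and 1.21 in Parental and 1.5, 1.0 and 0.732 in LM2. Of the 31-base words of Hoxd3, 61.1% also occur in transcripts of other genes, and 52.6% in Gm28230, a gene model that runs across Hoxd3 and Hoxd4. With Hoxd3, Hoxd4 and Gm28230 summed, the counts were 386, 342 and 433 in Parental and 311, 376 and 403 in LM2, and the log2 fold change was 0.10 (-0.10 to 0.30, adjusted p = 0.368), but Hoxd3 is a small part of that sum, which therefore does not test Hoxd3 alone. The call ended when effective transcript lengths were taken into account (0.53, adjusted p = 0.34), so Hoxd3 is reported as uncertain.

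The 5' end of Hoxd, which shapes digits and genitals in the embryo, was quiet. Hoxd11 had 10 to 24 counts per library and did not pass, and Hoxd12 and Hoxd13 did not have enough counts to be tested.

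In Hoxc the genes from Hoxc4 to Hoxc10 were on or at the threshold, and Hoxc11, Hoxc12 and Hoxc13 were off. Hoxc10, known for its part in hindlimb and lumbar patterning, stood at 32.2, 30.6 and 31.2 TPM in Parental and at 30.7, 30.3 and 29.5 TPM in LM2. The lines overlapped by a small margin in TPM, while in normalised CPM every LM2 library was below every Parental library. The log2 fold change was -0.09 (-0.18 to 0.01, adjusted p = 0.0993, and 0.0467 with upper-quartile scaling). Hoxc8, a gene of the thoracic region, was the single Hox gene to pass on the lower side. It stood at 1.31, 1.60 and 1.53 TPM in Parental and at 0.747, 1.01 and 1.04 TPM in LM2, without overlap. The log2 fold change was -0.64 ± 0.23 (-1.12 to -0.16, adjusted p = 0.0198), or 1.56-fold lower in LM2. The call ended with DESeq2 (adjusted p = 0.0666) and without LM2 replicate 1 (0.0789), Parental replicate 2 (0.0612) or Parental replicate 3 (0.0504).

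The other Hoxc genes that were on did not pass. Hoxc4 stood at 5.81, 5.38 and 6.08 TPM in Parental and 6.35, 5.64 and 5.93 TPM in LM2, with a log2 fold change of 0.02 (-0.17 to 0.21). Hoxc6, which is expressed in the mammary region of the trunk, stood at 4.75, 4.75 and 5.54 TPM in Parental and 4.77, 6.78 and 6.49 TPM in LM2 (0.23, -0.12 to 0.58). Hoxc9 stood at 3.81, 5.55 and 6.55 TPM in Parental and 5.71, 6.73 and 5.19 TPM in LM2 (-0.02, -0.26 to 0.23). In all of these the libraries of the lines overlapped, and Hoxc9 had the widest spread within Parental. The widest of these intervals, that of Hoxc6, allows a log2 fold change of up to 0.58.

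In Hoxa, Hoxa10 alone was on, between a quiet Hoxa9 and an undetected Hoxa11. Hoxa10, a gene of the uterus, the hindlimb and blood progenitors, stood at 8.98, 7.74 and 8.15 TPM in Parental and at 9.83, 8.79 and 8.29 TPM in LM2. The lines overlapped (log2 fold change 0.08, -0.11 to 0.27, adjusted p = 0.492). Hoxa9 had 15, 20 and 27 counts in Parental and 18, 16 and 20 in LM2; it reached 1 TPM in 1 LM2 library and did not pass.

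In Hoxb, 3 genes that are not next to each other were on at low levels. Hoxb3, an anterior gene, stood at 1.49, 1.87 and 1.21 TPM in Parental and 1.10, 1.08 and 1.42 TPM in LM2 (log2 fold change -0.25, -0.62 to 0.12). Hoxb6, a trunk gene, stood at 2.18, 1.73 and 2.21 TPM in Parental and 2.17, 2.22 and 2.41 TPM in LM2 (0.19, -0.16 to 0.54). Hoxb13, known from the prostate and the tail end of the embryo, stands far from the other Hoxb genes and was at 2.14, 2.42 and 1.43 TPM in Parental and 2.01, 1.90 and 1.31 TPM in LM2 (-0.23, -0.67 to 0.21). None of them passed (adjusted p = 0.23, 0.334 and 0.358), and the libraries of the lines overlapped in TPM. In normalised CPM the lines overlapped for Hoxb6 and Hoxb13, while for Hoxb3 every LM2 library was below every Parental library. Hoxb7 and Hoxb9, between Hoxb6 and Hoxb13, had at most 3 counts in any library, and Hoxb8 had 0.

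The authors' deposited table of log2 fold changes lists 16 Hox genes. In the authors' deposited table Hoxd9 has 0.54, Hoxd8 0.52, Hoxd10 0.04, Hoxc10 -0.08, Hoxc8 -0.68 and Hoxd3 0.54. For Hoxd3 the fit here gave 1.02. The highest deposited Hox value is that of Hoxc5, 0.60, beside 0.44 in the fit here, which did not pass. Hoxc9 has 0.15, beside -0.02 here. The rest are Hoxa10 0.09, Hoxb3 -0.35, Hoxb5 -0.30, Hoxb6 0.13, Hoxb13 -0.21, Hoxc4 0.03, Hoxc6 0.22 and Hoxd4 -0.06.

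The genes around the clusters were read from the same fit, and whether the Hox genes moved with their surroundings was not tested. Of the 5 nearest protein-coding genes on each side of each cluster, 40 in all, 31 were tested, 7 were higher and 13 lower in LM2 and 11 did not pass (64.5% called, beside 62.4% of all genes). At Hoxd, the 5' neighbour Lnpk, which shapes the endoplasmic reticulum, was lower (log2 fold change -0.21, interval -0.29 to -0.12), and the 3' neighbour Mtx2, a mitochondrial import protein, did not pass (0.05, -0.01 to 0.12). Farther out on the 3' side, Nfe2l2, a regulator of the oxidative stress response, was higher (0.47, 0.40 to 0.53, adjusted p = 3.55e-11), as was Agps, an enzyme of ether lipid synthesis (0.19, 0.12 to 0.25, adjusted p = 2.27e-05). Of the 9 tested neighbours of Hoxd, 2 were higher, 4 were lower and 3 did not pass. Evx2, the homeobox gene at the 5' end of Hoxd, had at most 2 counts, and Evx1, its paralogue at Hoxa, had 0. Farther out on the 5' side, Chn1, a Rac-regulating protein, stood at 12.6, 12.7 and 12.6 TPM in Parental and 2.3, 2.48 and 1.95 TPM in LM2 (log2 fold change -2.74). Next to the 5' end of Hoxc, Calcoco1 stood at 16.2, 16.9 and 18.1 TPM in Parental and 35.8, 35 and 39.2 TPM in LM2 (1.08); it encodes a receptor for autophagy.

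**Figure D4:**
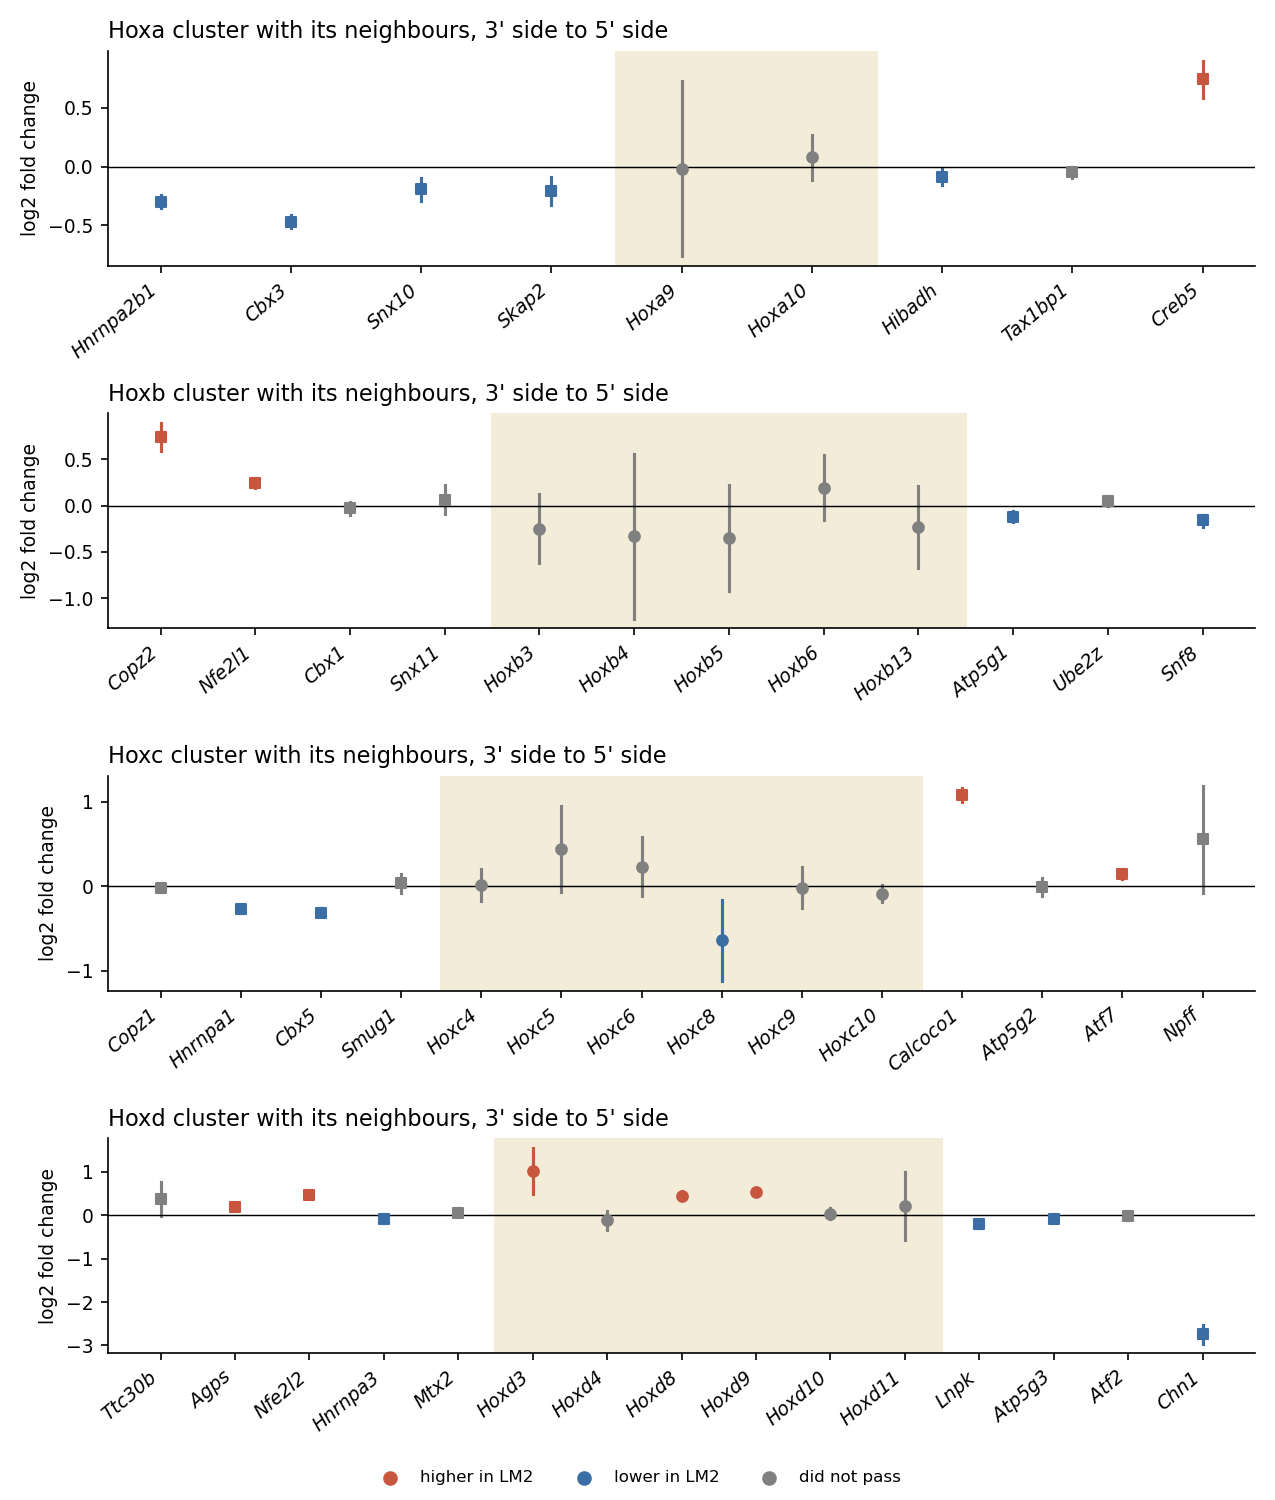
Log2 fold change, LM2 minus Parental, with 95% confidence intervals, for tested Hox genes (circles, shaded; 1 is not drawn) and the tested neighbours on each side (squares), 1 panel per cluster with its own scale, ordered from the 3' side to the 5' side. At Hoxd, Hoxd8 and Hoxd9 lie above 0 between Hoxd4 and Hoxd10, whose intervals include 0.

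Beside all tested genes of their chromosomes, the Hox genes among them, the clusters stood as follows. Chromosome 2, which holds Hoxd, had 57.9% of its 1098 tested genes called, beside 3 of 6 tested Hoxd genes, the uncertain Hoxd3 among them. Chromosome 6, which holds Hoxa, had a median log2 fold change of -0.18, while Hoxa10 was at 0.08. The medians of chromosomes 11 and 15 were -0.01 and 0.02, beside -0.25 for the tested Hoxb genes and 0.00 for the tested Hoxc genes.

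HOX proteins bind DNA together with TALE homeodomain proteins of the PBX and MEIS families, and the clusters are held silent by Polycomb complexes and kept active by MLL complexes. A list of 66 such cofactors and regulators had 59 tested members, of which 25 were higher, 17 were lower and 17 did not pass, or 71.2% called, beside 62.4% of all genes. By level, 5 of 9 passed from 5 to 20 CPM, 23 of 29 from 20 to 100 CPM and 14 of 21 from 100 CPM up, where 63.3%, 72.3% and 78% of all tested genes passed. Among the TALE cofactors 3 of 8 tested were higher and 3 lower. Pbx2 stood at 31.7, 32.4 and 35.7 TPM in Parental and 41.7, 44 and 46.8 TPM in LM2 (log2 fold change 0.26, 0.18 to 0.34, adjusted p = 2.59e-06). Meis2 moved the other way, with 9.72, 11.8 and 10.6 TPM in Parental and 6.99, 6.3 and 6.55 TPM in LM2 (-0.79, -0.92 to -0.66, adjusted p = 1.79e-10). Both were without overlap, while Pbx3 and Meis1 did not pass.

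Of the Polycomb repressive complex 2 genes, which methylate lysine 27 of histone H3, 4 of 11 were higher and 5 lower. Ezh2, its main catalytic subunit, stood at 104, 103 and 102 TPM in Parental and 65.8, 67.2 and 67.6 TPM in LM2 (log2 fold change -0.64, adjusted p = 5.92e-15), and Ezh1, the other catalytic subunit, was higher (0.24, adjusted p = 5.52e-05). The shared histone-binding subunit Rbbp4 was higher (0.49), and its paralogue Rbbp7 did not pass (0.01). Of 16 Polycomb repressive complex 1 genes 8 were higher, Pcgf5 the most (0.65), and 3 were lower, Bmi1 the most (-0.36). Of the 2 enzymes that remove the mark, Kdm6b was higher (0.46) and Kdm6a did not pass.

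Among 14 genes of the MLL and menin complexes and their elongation partners, 5 were higher, Aff1 the most (0.54), and 4 were lower, Ash2l the most (-0.43). Kmt2a, the MLL enzyme, did not pass (-0.06). The insulator protein gene Ctcf was lower (-0.36) and Maz higher (0.15), while the cohesin gene Rad21 did not pass (-0.03). Of the 10 signals and factors that switch on Hox genes in the embryo, 5 were tested, 3 were higher and 1 was lower. The 3 higher ones were the retinoid receptor genes Rarg (0.44), Rxra (0.37) and Rara (0.17). The lower one was Gdf11, a secreted factor of the trunk-to-tail transition (-0.60). Another retinoid receptor gene, Rxrb, the most abundant of the list, did not pass (-0.02). Cdx1, Cdx2 and Cdx4, the caudal-type activators of central Hox genes, were at 0.139 TPM or less on average in either line. Genes on both the silencing and the activating side thus moved in both directions, and their part in the levels of the Hox genes was not tested.

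**Figure D5:**
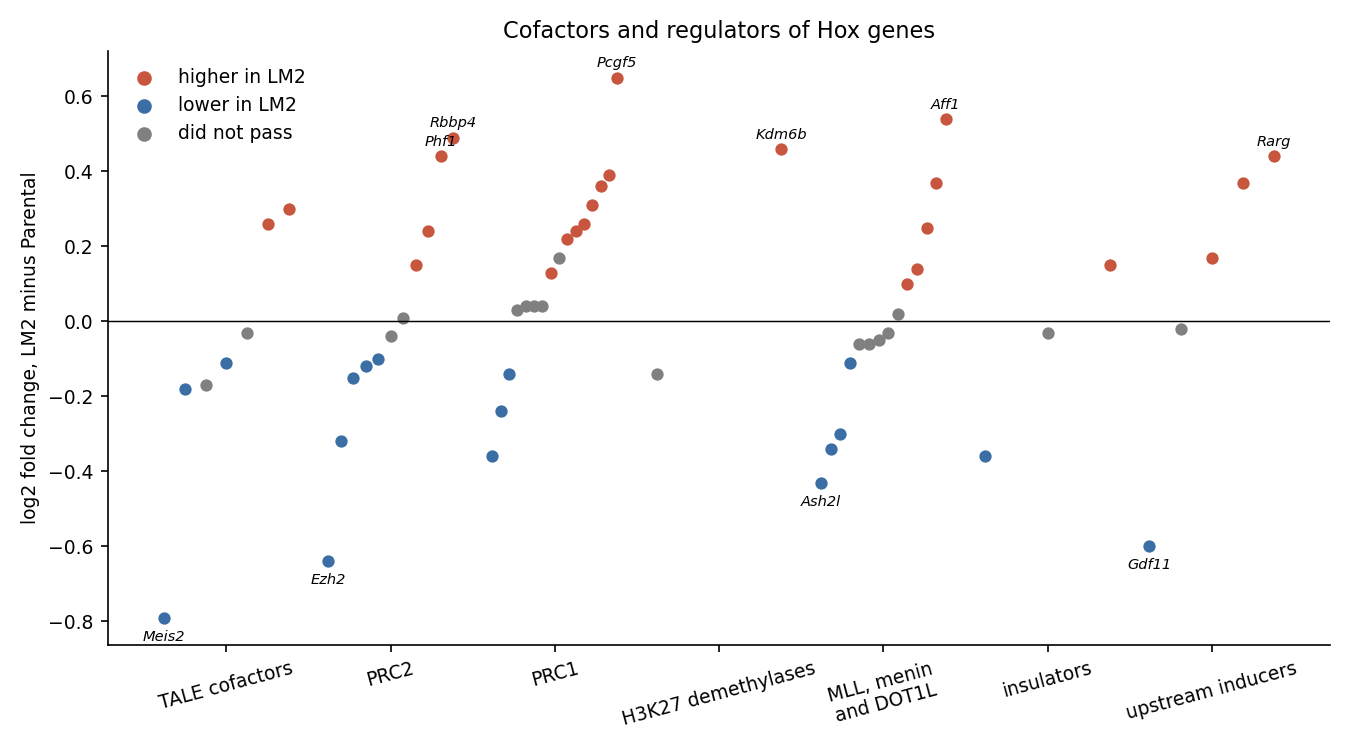
Log2 fold change, LM2 minus Parental, of tested Hox cofactors and regulators, 1 point per gene, grouped by complex or role and ordered by size within each group (1 gene is not drawn). Red points are higher in LM2, blue points lower and grey points did not pass; genes beyond 0.4 in size are named, with Pcgf5 and Aff1 above 0 and Meis2, Ezh2 and Gdf11 below it.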

How the data were processed

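For each line 3 libraries were made with an mRNA kit, per the labels, and each library's line and number come from its title; the tag Ac6 in the Parental titles is not explained there. The authors deposited a table per library of estimated counts and TPM (scaled for effective length and depth) for 117486 transcripts. The submitters' processing notes name kallisto 0.46.2, build GRCm39, edgeR 3.32.1, FastQC and MultiQC. How strand was treated and which transcript set was used is not stated, so overlapping and antisense genes cannot be told apart. Log2 fold changes per gene symbol were also deposited by the authors; their direction was read from their closeness to LM2 minus Parental as computed here (Pearson r = 0.957 across genes, which are not independent replicates).

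GENCODE release M21 assigned 116408 transcripts (99.1%) to genes by identifier; the rest, 0.426% to 0.448% of a library's counts, were left out. Counts and TPM were summed per gene, and summed counts were rounded. The fit used edgeR 4.0.16 in R 4.3.3 (filterByExpr, TMM, robust quasi-likelihood, Benjamini-Hochberg over all tested genes, no covariate), with the SE derived from the F statistic. Genes of a few counts have wide intervals. Libraries correlated at 0.991 to 0.994 within a line and at 0.962 to 0.964 between lines. Every Hox gene on in either line or called is named with its values. Of cofactors and regulators, up to 4 per direction by size of change and 4 by level that did not pass were to be named; others were added for their role after their values were seen, as were the neighbours named. Members, lists and tests were chosen with earlier results of these data known. Alternatives were other scaling (RLE, upper quartile), filters and thresholds, DESeq2 1.42.0, limma voom (limma 3.58.1), an effective-length offset, a replicate block, leaving out each library and, chosen after seeing the data, Hoxd3, Hoxd4 and Gm28230 as 1 sum. The fits were tested on simulated data. Promoter windows came from RefSeq (GRCm38.p6). Values of 2 listed genes are not reported here. The 12 noncoding RNAs listed for the clusters were looked up by symbol and were not found among the genes of the data, so they could not be analysed.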

Additional observations from a re-analysis of the deposited data

How the results depend on the processing

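Hoxd8 and Hoxd9 passed, higher in LM2, under all 14 alternatives fitted (log2 fold changes without 1 library 0.41 to 0.49 and 0.48 to 0.57), and 3 to 5 Hox genes were called in each; the counts of genes on, of regulators, of neighbours and of all genes called stayed within 1.5 times those reported. Hoxc8 and Hoxd3 kept their direction and lost their call under the settings named in the report. Values near 0 changed sign, with no call on either side: Hoxc4 was at -0.0012 with no low-count filter and between -0.04 and 0.06 without 1 library (-0.02 without Parental replicate 2); Hoxc9 was at 0.12 with effective lengths, at 0.00061 with limma voom and between -0.13 and 0.07 without 1 library (0.01 without LM2 replicate 3 or Parental replicate 2); Hoxd10 was between -0.01 and 0.08 without 1 library, below 0 without LM2 replicate 3. From CPM in place of TPM, the summed log2 ratio of LM2 over Parental was -0.05 for Hoxc (0.02 from TPM) and 0.38 for Hoxd (0.41 from TPM). The cause of these changes was not tested. Same-numbered libraries did not deviate together (correlations -0.078, 0.0452 and 0.0147), nor did each correlate best with its own number. With 3 libraries per line, this does not show that same-numbered libraries were prepared apart. With the replicate number as a block, 5 Hox genes were called, and 8250 genes in all. Without 1 library, Hox calls ranged from 3 to 5, regulators called from 40 to 43, neighbours called from 17 to 20, all genes called from 7778 to 8258, genes on in Parental from 13 to 14, and 13 were on in LM2. Depth limits the 19 untested genes, and the 7 quiet ones tested have wide intervals.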

Other observations

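The transcripts behind some Hox genes were not coding ones. Of all Hox counts, 93.9% in Parental and 94.4% in LM2 lay on transcripts annotated as protein-coding. Hoxb5, a trunk gene that was not on, had 94.8% of its counts in Parental and 81.7% in LM2 on a retained-intron transcript. Of the counts of the quiet Hoxd11, 93.7% in Parental and 96.3% in LM2 lay on 1 processed transcript. Hoxa10 had 46.2% of its counts in Parental and 49.7% in LM2 on a processed transcript, and Hoxd4 had 39.2% and 38.5%. Hoxc6 had 20.3% and 18.6% on 1 processed transcript and 20.9% and 21.2% on another. Its coding transcript stood at 1.58, 1.61 and 1.56 TPM in Parental and at 1.62, 2.03 and 2.16 TPM in LM2. For Hoxc8 the coding transcript had 41, 49 and 47 counts in Parental and 19, 21 and 14 in LM2, without overlap. Its retained-intron transcript had 32, 21 and 28 against 12, 21 and 37, which overlap. The coding transcript of Hoxc8 stood at 0.797, 1.19 and 1.02 TPM in Parental, so by itself it would not count as on there. kallisto divides reads between transcripts that share sequence, and no test was run on single transcripts.

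The genes beside the Hox clusters are themselves paralogues, since the whole region was duplicated. In the families below, chosen after their values were seen, copies that passed went the same way within a family, while some copies did not pass. Each family has few copies, and of the coatomer genes only Copz2 passed, so no pattern of paralogues is drawn from this. The ATP synthase subunit genes Atp5g1 (beside Hoxb) and Atp5g3 (beside Hoxd) were lower in LM2, with log2 fold changes of -0.12 and -0.09, and Atp5g2 (beside Hoxc) did not pass (-0.01). Of the heterochromatin protein genes, Cbx3 (beside Hoxa) and Cbx5 (beside Hoxc) were lower (-0.47 and -0.31) and Cbx1 (beside Hoxb) did not pass (-0.03). Of the stress-response factors, Nfe2l1 (beside Hoxb) and Nfe2l2 (beside Hoxd) were higher (0.24 and 0.47), and Nfe2l3 and Nfe2 did not have enough counts to be tested. The RNA-binding protein genes Hnrnpa2b1, Hnrnpa1 and Hnrnpa3 were lower (-0.30, -0.27 and -0.08), although normalised levels of the lines overlapped for Hnrnpa3. Of the coatomer genes Copz2 was higher (0.74) and Copz1 did not pass (-0.02). Differences between paralogues were not tested.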
